A study of Homo sapiens with 6 samples.

Results

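The guanylate-binding proteins GBP1 to GBP5 were followed in the RNA of BR cells with and without a knockdown of SPANXB1. These 5 genes were taken by symbol from a table of 16570 genes. They were chosen by their differences between BR-shSPANXB1 and BR-shCON cells in these same samples, GBP4 having been among the larger rises of an earlier look at the data, so their differences are described here with no p-value, and members that pass the threshold of the whole-table fit are counted beside the share of all genes that do.

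Guanylate-binding proteins are large GTPases of the dynamin superfamily that cells make in quantity after exposure to interferon-gamma and, to a lesser degree, type I interferon. They assemble on the membranes of bacteria and of the vacuoles that hold parasites, help to break these open, and expose bacterial lipopolysaccharide to the caspases that start pyroptosis, an inflammatory form of cell death. In human cells GBP1, GBP2 and GBP5 end in a signal for a prenyl lipid anchor, whereas GBP3 and GBP4 lack one and join coats that GBP1 begins. The promoters of such genes typically hold an interferon-stimulated response element (ISRE), read by a complex that holds STAT2 and IRF9 and by IRF1, or a gamma-activated site (GAS), through which interferon-gamma acts.

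BR cells are a brain metastatic variant of MDA-MB-231, a triple-negative human breast cancer line. BR-shSPANXB1 cells (3 samples) stably carried a lentiviral short hairpin RNA against SPANXB1, a cancer-testis antigen, and BR-shCON cells (3 samples) carried the control vector, both in a puromycin-selected line. The hairpin was 1 sequence picked for its efficiency, so that effects of the hairpin and of SPANXB1 loss cannot be told apart, and no source used here says whether a line was a clone or a pool. The extraction text of the labels names MDA-MB-231 and BR cells without the knockdown, and the groups were read from the titles and cell types. For its replicates in general the study names separate batches of cells, but the labels do not tie these 6 samples to batches, so p-values measure the spread between these samples.

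All 5 genes lie on the minus strand of chromosome 1, in 1 cluster that spans 419578 bases from GBP3 to the pseudogene GBP1P1 (GRCh38, GENCODE v29). From the low end of the coordinates upwards, GBP3 occupies chr1:89006666-89022894 and GBP1 chr1:89052319-89065360. GBP2 lies at chr1:89106132-89150456, GBP4 at chr1:89181148-89198932 and GBP5 at chr1:89258950-89272804. GBP7 overlaps GBP2 on the same strand over 18706 bases of annotated gene. Antisense genes overlap GBP4 over 219 bases and GBP5 over 9173 bases, also of annotated gene, introns included. The library protocol names no step that keeps strand. Reads from stretches of transcript that GBP4 or GBP5 shares with these antisense partners may therefore not be told apart.

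The promoter windows below show the letters that ISRE and GAS searches found, because they are the features of the GBP genes tied most directly to interferon signaling. RefSeq (GRCh38.p14) gives 300 bases a gene, 250 before and 50 after the start, for GBP1, GBP3 and GBP4, while GBP2 and GBP5 have no entry. GAAANNGAAA was searched on both strands as the ISRE and TTCNNNGAA as the GAS. Each window is printed 5′ to 3′ along the gene, with the matched letters in capitals, and the ISRE letters appear as their reverse complement because each match is on the strand opposite to the gene. The windows lie on the minus strand at chr1:89022845-89022874 (GBP3 ISRE), chr1:89065316-89065345 (GBP1 ISRE), chr1:89198927-89198956 (GBP4 ISRE) and chr1:89022863-89022891 (GBP3 GAS).
GBP3 ISRE: aaagaagtacTTTCAGTTTCattaggctct
GBP1 ISRE: aacgaagtacTTTCAGTTTCatattactct
GBP4 ISRE: gtgcatgtccTTTCAATTTCggttctcaca
GBP3 GAS: actgagtcacTTCCTTGAAagaagtactt

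The ISRE letters occurred in 3 of 3 of these promoters and in 1255 of 35116 RefSeq promoters (3.57%). GBP1 and GBP3 carried the same 10 matched bases, and those of GBP4 differed only in the free letters (NN) of the search. The match fell at bases 3 to 12 of GBP3, at bases -4 to 6 around the start of GBP4 and at bases -127 to -118 before the RefSeq start of GBP1, a place that GENCODE draws inside the GBP1 gene. The GAS letters occurred in 1 of 3, at bases -15 to -7 of GBP3, and in 2689 of 35116 promoters (7.66%). Neither motif was found in the windows of GBP6 and GBP7, the other coding genes of the cluster. A match of letters is not a measured binding site.

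The coding sequences of the family fell into near and far relatives. GBP1 and GBP3 were 91.7% identical, GBP2 was 83.0% identical to GBP3 and 82.5% to GBP1, and GBP5 stood at 74.2% to 76.7% from these 3. GBP4 was the outlying member, at 66.0% to 67.7% identity with each of the others, with the longest coding sequence (1923 bases, against 1761 to 1788 in the others). Of the windows of 100 bases, the read length, 1.87% of those in GBP1 also occurred in the pseudogene GBP1P1, and none of those in GBP2 or GBP3 occurred in another gene. Shared windows made up 0.780% of GBP4 and 3.61% of GBP5, mostly or wholly with the antisense partners named above. Reads over these stretches may have been divided between genes.

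Total counts were 16294462 to 16666167 per sample. SPANXB1, the target of the hairpin, had 232.16, 259.73 and 247.88 FPKM (fragments scaled to transcript length and to the number mapped) in BR-shSPANXB1 cells, against 444.87, 562.88 and 515.45 FPKM in BR-shCON cells. It fell by 1.11 on the log2 scale (SE 0.05, adjusted p = 1.79e-14, edgeR quasi-likelihood test with Benjamini-Hochberg adjustment over the 11439 genes whose FPKM averaged 1 or more), the direction that the labels give. Of the 11439 genes tested, 1579 (13.8%) passed an adjusted p of 0.05 and are termed called, 780 of them higher (6.82%) and 799 lower (6.98%). This fit did not pair samples by replicate number, and a fit that did (the replicate block) called 2935. Markers of the line and of mesenchymal cells (6 of 6 with a row) summed to 3307 to 3522 FPKM in BR-shSPANXB1 cells and 3164 to 3241 FPKM in BR-shCON cells. The summed markers of luminal epithelium were 12.8 to 14.6 FPKM in BR-shSPANXB1 cells and 13.2 to 16.4 FPKM in BR-shCON cells. Those of endothelium were 2.88 to 3.33 FPKM in BR-shSPANXB1 cells and 3.06 to 3.62 FPKM in BR-shCON cells. Those of neural cells were 36.6 to 36.8 FPKM in BR-shSPANXB1 cells and 37.5 to 39.5 FPKM in BR-shCON cells. Most of the neural sum was MBP (means of 31.1 FPKM in BR-shSPANXB1 cells and 31.9 FPKM in BR-shCON cells). GFAP was at most 0.08 FPKM and RBFOX3 at most 0.4 FPKM in any sample. Among the markers AXL and FOSL1 of the line were called higher, and EPCAM, KDR and SYT1 of the other lists lower, all named after their values were seen. The calls of FOSL1, EPCAM, KDR and SYT1 were lost in most fits without 1 sample and with limma, whereas that of AXL was kept. With DESeq2, EPCAM, KDR and SYT1 were not called (adjusted p of 0.114, 0.0793 and 0.114), and the groups of KDR overlapped. The part of these 5 genes in the GBP levels was not tested. The leukocyte markers PTPRC and ITGAM were at 0 to 0.06 FPKM in every sample, and the lymphocyte markers of the list were not analysed here. The 5 leukocyte markers with a row summed to 1.27 to 1.80 FPKM in BR-shSPANXB1 cells, against 0.72 to 1.28 FPKM in BR-shCON cells, most of it CD14 and LYZ, and their part in the GBP levels was not tested. In bulk RNA, more cells that express a gene and more RNA per cell cannot be told apart.

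Among the 5 GBP genes, GBP2, GBP3, GBP4 and GBP5 were higher in BR-shSPANXB1 cells with no overlap between the groups, whereas GBP1 was near level. Per length, the order of the transcripts was GBP3, GBP1, GBP2, GBP4 and GBP5 in all 6 samples, with no overlap between neighbours in that order within either group. GBP4 and GBP5, the least abundant, had the widest ratios of the group means (1.84 and 1.70), GBP2 had a ratio of 1.48, and GBP3 and GBP1, the most abundant, had the smallest (1.21 and 1.04).

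GBP1, the member that binds lipopolysaccharide and begins the coat on Gram-negative bacteria, had 18.08, 16.83 and 17.24 FPKM in BR-shSPANXB1 cells, against 17.44, 15.79 and 16.75 FPKM in BR-shCON cells. The groups overlapped, with 2 of the 3 BR-shSPANXB1 values inside the BR-shCON range. The means were 17.4 ± 0.637 FPKM in BR-shSPANXB1 cells and 16.7 ± 0.829 FPKM in BR-shCON cells (SD, n = 3 each), a log2 fold change of 0.05 (SE 0.06), and 34.0% of all tested genes had a higher one. These values rested on 676 to 765 counts per sample.

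GBP2, which carries a geranylgeranyl anchor and is drawn into coats begun by GBP1, had 4.16, 4.13 and 3.75 FPKM in BR-shSPANXB1 cells, against 2.93, 2.5 and 2.72 FPKM in BR-shCON cells. Every BR-shSPANXB1 value lay above every BR-shCON value. The means were 4.01 ± 0.229 FPKM in BR-shSPANXB1 cells and 2.72 ± 0.215 FPKM in BR-shCON cells (SD, n = 3 each), a log2 fold change of 0.55 (SE 0.09), with 157 to 261 counts per sample. It ranked 75 of 11439 by log2 fold change.

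GBP5, which also carries a geranylgeranyl anchor, sits at the Golgi apparatus and with GBP2 lowers the activity of the protease furin, had 1.02, 0.73 and 0.7 FPKM in BR-shSPANXB1 cells, against 0.47, 0.38 and 0.59 FPKM in BR-shCON cells. The groups did not overlap, but the gap between them was only 0.11 FPKM and the SDs were 21.6% of the mean in BR-shSPANXB1 cells and 21.9% in BR-shCON cells. With a mean of 0.817 ± 0.177 FPKM in BR-shSPANXB1 cells and 0.480 ± 0.105 FPKM in BR-shCON cells (SD, n = 3 each) the gene was below the filter. Its log2 fold change of 0.74 (SE 0.16) comes from a fit without the filter, on 40.6 to 108 counts per sample.

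GBP3, without a lipid anchor and closest to GBP1 in sequence, had 23.34, 23.67 and 25.17 FPKM in BR-shSPANXB1 cells, against 20.03, 18.04 and 21.34 FPKM in BR-shCON cells. The groups did not overlap, and BR-shCON replicate 2 was the lowest sample. The means were 24.1 ± 0.975 FPKM in BR-shSPANXB1 cells and 19.8 ± 1.66 FPKM in BR-shCON cells (SD, n = 3 each), a log2 fold change of 0.23 (SE 0.06), with 810 to 1094 counts per sample. Without BR-shCON replicate 2 the log2 fold change was 0.17 and GBP3 was no longer among the genes called.

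GBP4, also without a lipid anchor and known to help recruit caspase-4 to GBP-coated bacteria, had 2.78, 2.44 and 2.69 FPKM in BR-shSPANXB1 cells, against 1.52, 1.4 and 1.39 FPKM in BR-shCON cells. The lowest BR-shSPANXB1 value was 0.92 FPKM above the highest BR-shCON value. The means were 2.64 ± 0.176 FPKM in BR-shSPANXB1 cells and 1.44 ± 0.0723 FPKM in BR-shCON cells (SD, n = 3 each), a ratio of 1.84 and a log2 fold change of 0.86 (SE 0.09), with 135 to 265 counts per sample. It ranked 15 of 11439 by log2 fold change, with 0.122% of tested genes above it.

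**Figure D1:**
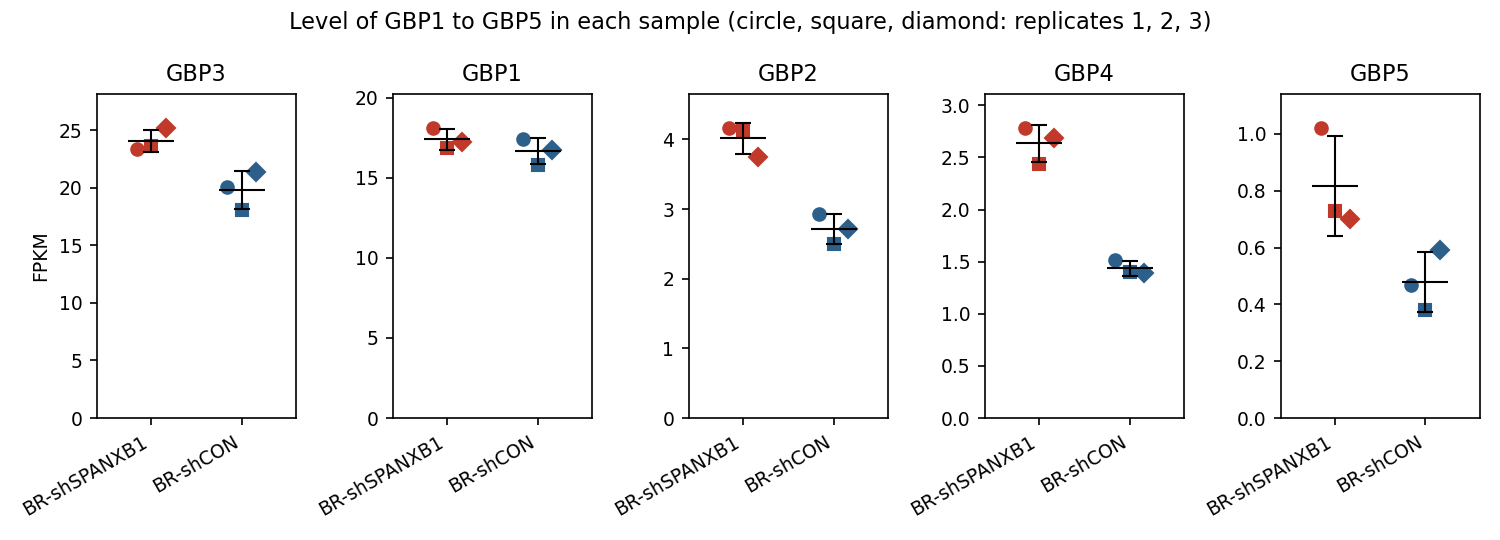
FPKM of GBP3, GBP1, GBP2, GBP4 and GBP5 in each sample, 1 panel per gene with its own axis from 0, BR-shSPANXB1 in red and BR-shCON in blue, with symbols for the 3 replicates and bars for the mean ± SD. The groups overlap for GBP1 alone, and GBP4 has 2.44 to 2.78 FPKM in BR-shSPANXB1 cells and 1.39 to 1.52 FPKM in BR-shCON cells.

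Of the 4 members above the filter, 3 were called higher (GBP2, GBP3 and GBP4), beside 6.82% of all genes tested, and 4 of 5 were called higher without the filter, beside 5.57%. The replicate block called the same 3, beside 12.7%. Groups that did not overlap were found for 3 of the 4, beside 16.9% of tested genes. By the criteria of the study (adjusted p under 0.05, absolute log2 fold change over 0.59, mean control FPKM over 1), 1 member was called higher, GBP4, beside 0.254%. GBP2 lay just below the fold criterion. Since the members were selected on this contrast, these counts describe the choice.

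The 5 transcripts summed to 49.38, 47.8 and 49.55 FPKM in BR-shSPANXB1 cells, against 42.39, 38.11 and 42.79 FPKM in BR-shCON cells. All 3 BR-shSPANXB1 sums lay above the BR-shCON sums. The shares of the members in this sum come from the same FPKM, so they restate the differences above and add no separate result. GBP1 made up 35.5% ± 0.954 of it in BR-shSPANXB1 cells and 40.6% ± 1.25 in BR-shCON cells (SD, n = 3 each). Its FPKM was near level, and its share was lower because the rest of the sum was higher. GBP4 made up 5.39% ± 0.265 in BR-shSPANXB1 cells and 3.50% ± 0.224 in BR-shCON cells. GBP2 made up 8.21% ± 0.567 in BR-shSPANXB1 cells and 6.61% ± 0.281 in BR-shCON cells. GBP3 held nearly level, at 49.2% ± 1.79 in BR-shSPANXB1 cells and 48.2% ± 1.49 in BR-shCON cells, with overlapping values. The prenylated and the unanchored members did not divide by their differences. GBP1 and GBP2 are both prenylated, and the FPKM of GBP1 was near level while that of GBP2 was higher in BR-shSPANXB1 cells.

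**Figure D2:**
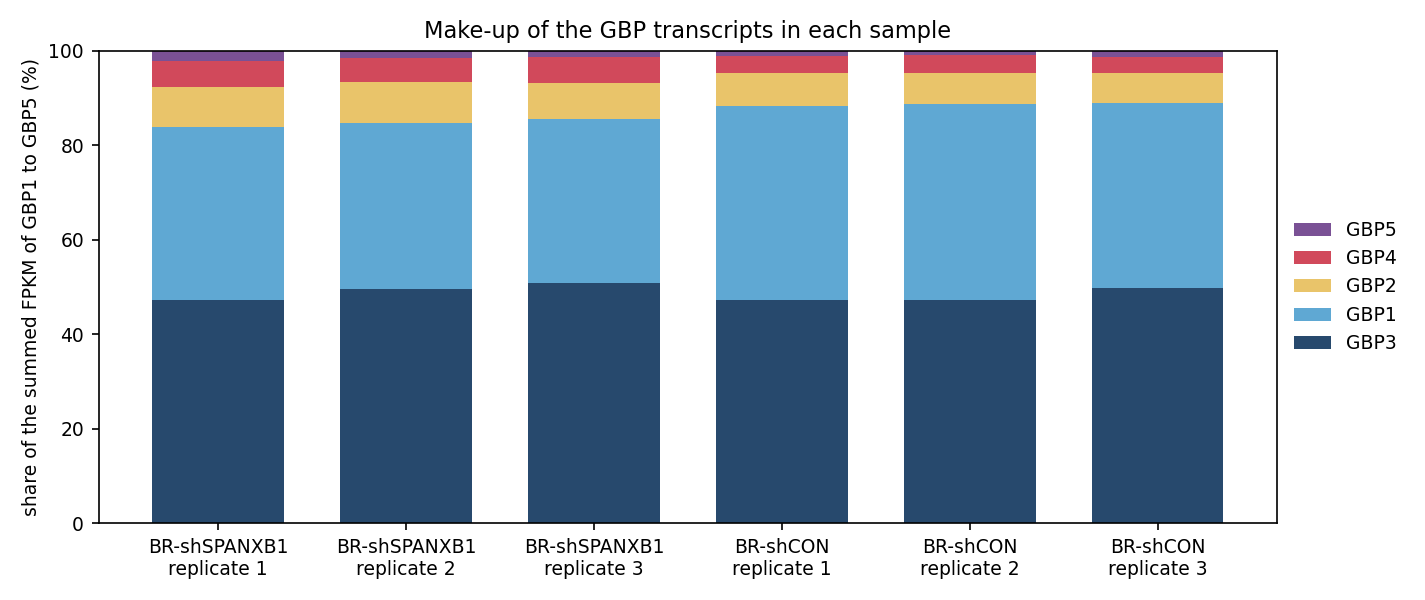
Share of each member in the summed FPKM of GBP1 to GBP5, in percent, for each of the 3 BR-shSPANXB1 and 3 BR-shCON samples (stacked bars, 0 to 100%). GBP3 and GBP1 fill most of every bar, and the share of GBP1 is 34.8% to 36.6% in BR-shSPANXB1 cells and 39.1% to 41.4% in BR-shCON cells.

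GBP6, the other coding family member of the table, was near 0 in every sample, at 0, 0.05 and 0.02 FPKM in BR-shSPANXB1 cells and 0.05, 0 and 0.07 FPKM in BR-shCON cells, on at most 5 counts. No difference could be read at that depth. GBP7 and GBP1P1 were not analysed here.

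The genes on either side of the cluster were compared with it. Of 6 tested genes within 300 kb of its ends, 2 were called, both lower, beside 13.8% of all tested genes called and 6.98% called lower. These were LRRC8B and LRRC8C, which encode subunits of volume-regulated anion channels. LRRC8C averaged 8.47 ± 0.437 FPKM in BR-shSPANXB1 cells and 9.84 ± 0.263 FPKM in BR-shCON cells (SD, n = 3 each), a log2 fold change of -0.23 (SE 0.05, adjusted p = 0.00251, edgeR quasi-likelihood test). LRRC8B averaged 2.87 ± 0.327 FPKM in BR-shSPANXB1 cells and 3.46 ± 0.225 FPKM in BR-shCON cells, a log2 fold change of -0.28 (SE 0.08, adjusted p = 0.0223), a call lost without BR-shSPANXB1 replicate 2 or BR-shCON replicate 1. On the side next to GBP3, the log2 fold changes were 0.02 for the kinase gene PKN2, 0.02 for GTF2B, a general transcription factor of RNA polymerase II, -0.03 for KYAT3 and -0.09 for RBMXL1, none of them called.

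**Figure D3:**
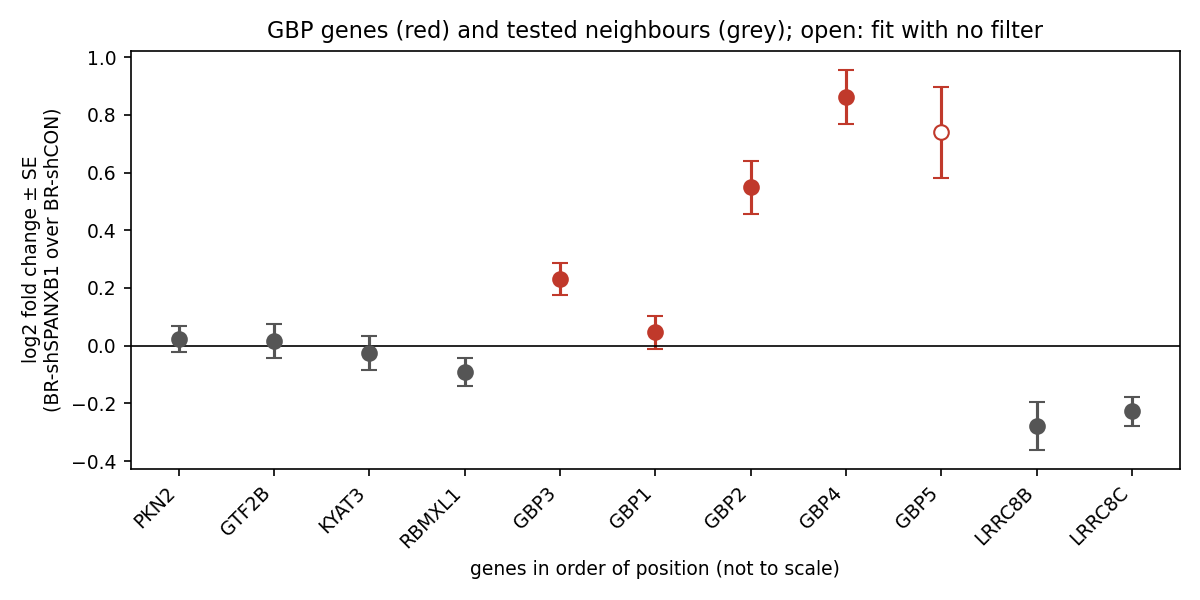
Log2 fold change (BR-shSPANXB1 over BR-shCON, ± SE) of the GBP genes (red) and the tested genes within 300 kb of the cluster (grey), in order of position and not to scale. The open point is GBP5, from the fit without the filter, and the GBP genes range from 0.05 (GBP1) to 0.86 (GBP4) while LRRC8B and LRRC8C lie at -0.28 and -0.23.

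The genes whose levels over the 6 samples were most like those of the 2 widest-ranging members above the filter, GBP4 and GBP2, were found by the root mean square difference of log2(FPKM + 0.1), each gene centred on its mean. For GBP4 these were IL11 (0.0733), a cytokine of the IL-6 family, TRAF1 (0.0803), an adaptor of TNF receptors, and CD82 (0.0904), a tetraspanin. TRAF1 had 5.0, 5.02 and 5.36 FPKM in BR-shSPANXB1 cells, against 2.85, 2.82 and 3.0 FPKM in BR-shCON cells, with a log2 fold change (0.84) close to that of GBP4 (0.86) at a higher level. For GBP2 they included CYP1A1 (0.0457), a cytochrome of xenobiotic metabolism, and TCEA2 (0.0566), a transcription elongation factor. CYP1A1 had 3.92, 4.16 and 3.74 FPKM in BR-shSPANXB1 cells, against 2.74, 2.54 and 2.61 FPKM in BR-shCON cells. Genes picked in this way share the direction of the member by construction.

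Genes of the pathways around the GBP family were then counted in the same fit. The lists share some genes (IRF1, APOL3, ICAM1, MX1 and MX2), and the median log2 fold change of all tested genes was 0.00023. In this fit 6.82% of all tested genes were called higher and 6.98% lower, the shares that stand beside each count below. The lists were chosen with earlier results of these data known, so their counts are descriptions.

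Among the receptors and transducers of interferon-gamma, IRF1 moved most. Of 12 tested genes of this list, 3 were called higher and 1 lower, beside 6.82% and 6.98% of all tested genes. The median log2 fold change of the list was 0.04. IRF1, a transcription factor induced by interferon-gamma that acts on GBP promoters, had 26.96, 24.88 and 25.24 FPKM in BR-shSPANXB1 cells, against 18.58, 20.56 and 18.36 FPKM in BR-shCON cells. It rose by a log2 fold change of 0.44 (SE 0.05, adjusted p = 1.31e-06, edgeR quasi-likelihood test), with no overlap between the groups.

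The other called genes of this list differed by less. On the log2 scale the kinase gene JAK1 rose by 0.16 (SE 0.04) and NLRC5, an activator of MHC class I genes, by 0.27 (SE 0.07), with adjusted p of 0.00306 and 0.00609 (edgeR quasi-likelihood test). NLRC5 was not called by limma at either pseudocount (adjusted p = 0.0672 and 0.0659), where 2 genes of the list were called higher. SOCS3, an inhibitor of JAK signaling, fell by 0.17 on the log2 scale (SE 0.05, adjusted p = 0.0323), a call lost in 5 of the 6 fits without 1 sample and with DESeq2 (adjusted p = 0.0884). The log2 fold changes were 0.09 for the receptor gene IFNGR1, -0.04 for IFNGR2, -0.01 for IRF2, -0.02 for PIAS1 and 0.17 for CIITA, none of them called. JAK2 (0.24, adjusted p = 0.136) and the phosphatase gene PTPN2 (-0.15, adjusted p = 0.0616) were called in the fit with the replicate block (adjusted p of 0.0462 and 0.00895). SOCS1 averaged 0.790 ± 0.557 FPKM in BR-shSPANXB1 cells and 0.867 ± 0.176 FPKM in BR-shCON cells, and BATF2 averaged 0.787 ± 0.184 FPKM in BR-shSPANXB1 cells and 0.763 ± 0.229 FPKM in BR-shCON cells, both below the filter. IFNG and IRF8 were not analysed here.

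The transducers of type I interferon, whose complex reads the ISRE, gave 1 call among 7 tested genes. This was the receptor gene IFNAR2, with a log2 fold change of 0.29 (SE 0.09, adjusted p = 0.0372, edgeR quasi-likelihood test), and the median log2 fold change was 0.01. That call was lost without BR-shSPANXB1 replicate 2 or 3, without BR-shCON replicate 1 or 3, and with DESeq2 (adjusted p = 0.132). STAT2 and IFNAR1 had log2 fold changes of 0.03 and -0.04. IRF3 had a log2 fold change of 0.13 (adjusted p = 0.106), and was called with the replicate block (adjusted p = 0.0222).

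Of 27 tested targets of interferon-gamma other than the GBP genes, 12 rose and 1 fell, beside 6.82% and 6.98% of all tested genes. The median log2 fold change of the list was 0.22. APOL3 had the highest log2 fold change in the list, 0.93 (SE 0.14, adjusted p = 2.75e-05, edgeR quasi-likelihood test). CD74, a chaperone of MHC class II molecules, rose on the log2 scale by 0.60 (SE 0.09, adjusted p = 1.71e-05), the protease gene CTSS by 0.44 (SE 0.07, adjusted p = 5.13e-05) and APOL6 by 0.30 (SE 0.05, adjusted p = 4.85e-05). The groups of these 4 genes did not overlap. The gene that fell was CD274, which encodes PD-L1 and is named after its values were seen, with a log2 fold change of -0.18 in counts but overlapping FPKM of 12.6 ± 0.905 in BR-shSPANXB1 cells and 12.3 ± 1.06 in BR-shCON cells (SD, n = 3 each). Its call was lost in 5 of the 6 fits without 1 sample and with DESeq2 (adjusted p = 0.136). Without 1 sample, 10 or 11 were called higher, and 9 with DESeq2.

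Genes known best from the type I interferon response gave a like count. Of 27 tested, 12 rose and 1 fell, beside 6.82% and 6.98% of all tested genes. The median log2 fold change was 0.21, and 12 or 13 were called higher without 1 sample. On the log2 scale SAMD9L, an antiviral restriction factor, rose by 0.58 (SE 0.06, adjusted p = 2.02e-08, edgeR quasi-likelihood test), and its relative SAMD9 by 0.35 (SE 0.04, adjusted p = 1.73e-07). DDX58, which encodes the RNA sensor RIG-I, rose on that scale by 0.39 (SE 0.04, adjusted p = 8.79e-08) and OASL by 0.40 (SE 0.05, adjusted p = 8.28e-07). The gene called lower was OAS3, named after its values were seen, with 15.73, 16.29 and 14.88 FPKM in BR-shSPANXB1 cells, against 19.85, 20.54 and 19.4 FPKM in BR-shCON cells. For IFI44L, also named after its values were seen, counts and FPKM differed. Its log2 fold change in counts was -0.05 and not called. Its FPKM were 1.94 ± 0.101 in BR-shSPANXB1 cells and 2.53 ± 0.130 in BR-shCON cells (SD, n = 3 each), with no overlap. It was called lower by limma at both pseudocounts (adjusted p of 0.0461 and 0.0439).

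IRF1 and TRAF1 are also targets of NF-kB, a factor of inflammatory signaling. Of 16 tested genes of that list, 6 rose and 2 fell, beside 6.82% and 6.98% of all tested genes. The median log2 fold change of the list was 0.14. On the log2 scale TRAF1 rose by 0.84 (SE 0.08, adjusted p = 2.16e-08, edgeR quasi-likelihood test) and TNFAIP2 by 0.28 (SE 0.04, adjusted p = 2.51e-05), while the chemokine gene CXCL8 fell by 0.32 on the log2 scale (SE 0.06, adjusted p = 0.00129). The other gene that fell was NFKB1 (adjusted p = 0.0373), named after its values were seen, a call lost in 4 of the 6 fits without 1 sample and with DESeq2 (adjusted p = 0.0886).

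The proteins that act with GBPs on bacteria and their vacuoles were counted next. Of 17 tested genes 8 rose and 1 fell, beside 6.82% and 6.98% of all tested genes. The median log2 fold change of the list was 0.14. APOL3 encodes an apolipoprotein L that dissolves bacterial membranes once GBP1 has opened the outer coat, and had 3.42, 4.22 and 4.21 FPKM in BR-shSPANXB1 cells, against 1.66, 2.01 and 2.25 FPKM in BR-shCON cells. The groups did not overlap. On the log2 scale LGALS8, which marks broken vacuoles, rose by 0.15 (SE 0.04, adjusted p = 0.00832, edgeR quasi-likelihood test), the autophagy receptor gene CALCOCO2 by 0.16 (SE 0.04, adjusted p = 0.00967) and RNF213, a ubiquitin ligase for lipopolysaccharide, by 0.15 (SE 0.04, adjusted p = 0.0134). The call of LGALS8 was lost without BR-shSPANXB1 replicate 1, that of CALCOCO2 without BR-shSPANXB1 replicate 2 or BR-shCON replicate 1, and that of RNF213 without BR-shSPANXB1 replicate 2. The gene that fell was CASP1, named after its values were seen, at 6.72 ± 0.988 FPKM in BR-shSPANXB1 cells and 8.62 ± 0.990 FPKM in BR-shCON cells (SD, n = 3 each, adjusted p = 0.0155). That call was lost without BR-shSPANXB1 replicate 1 or 3 or BR-shCON replicate 2. It was also lost with DESeq2 (adjusted p = 0.0660) and with limma at both pseudocounts (adjusted p of 0.0747 and 0.0746). The count of 8 was 5 without BR-shSPANXB1 replicate 1, 2 without BR-shSPANXB1 replicate 2, 4 without BR-shCON replicate 1, and 4 with DESeq2 or limma.

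The enzymes that attach the prenyl anchor and the partners that hold GBP1 in the cytosol gave no call. Of 13 tested genes 0 passed the edgeR test, DESeq2 or limma, 2 had an unadjusted p under 0.05 with edgeR, and the median log2 fold change was 0.05. RCE1, a protease that trims prenylated proteins, had a log2 fold change of 0.22 (SE 0.09), and FNTA, a subunit of farnesyl and geranylgeranyl transferases, one of 0.11 (SE 0.06). Without BR-shSPANXB1 replicate 1, 1 gene of the list was called, RCE1. The 14-3-3 genes YWHAQ and SFN had log2 fold changes of 0.06 and -0.08.

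Among related GTPases, 0 of 6 tested genes were called by edgeR, DESeq2 or limma, 2 had an unadjusted p under 0.05 with edgeR, and they had a median log2 fold change of 0.13. MX1, an interferon-induced antiviral GTPase, had 9.29, 9.14 and 9.24 FPKM in BR-shSPANXB1 cells, against 8.42, 7.73 and 7.74 FPKM in BR-shCON cells, with no overlap and a log2 fold change of 0.20 (SE 0.07, adjusted p = 0.0650, edgeR quasi-likelihood test). MX2 and the atlastin gene ATL1 each had a log2 fold change of 0.29 with no overlap, and ATL3 one of -0.05. With the replicate block MX1 (adjusted p = 0.0253) and ATL1 (adjusted p = 0.0486) were called.

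**Figure D4:**
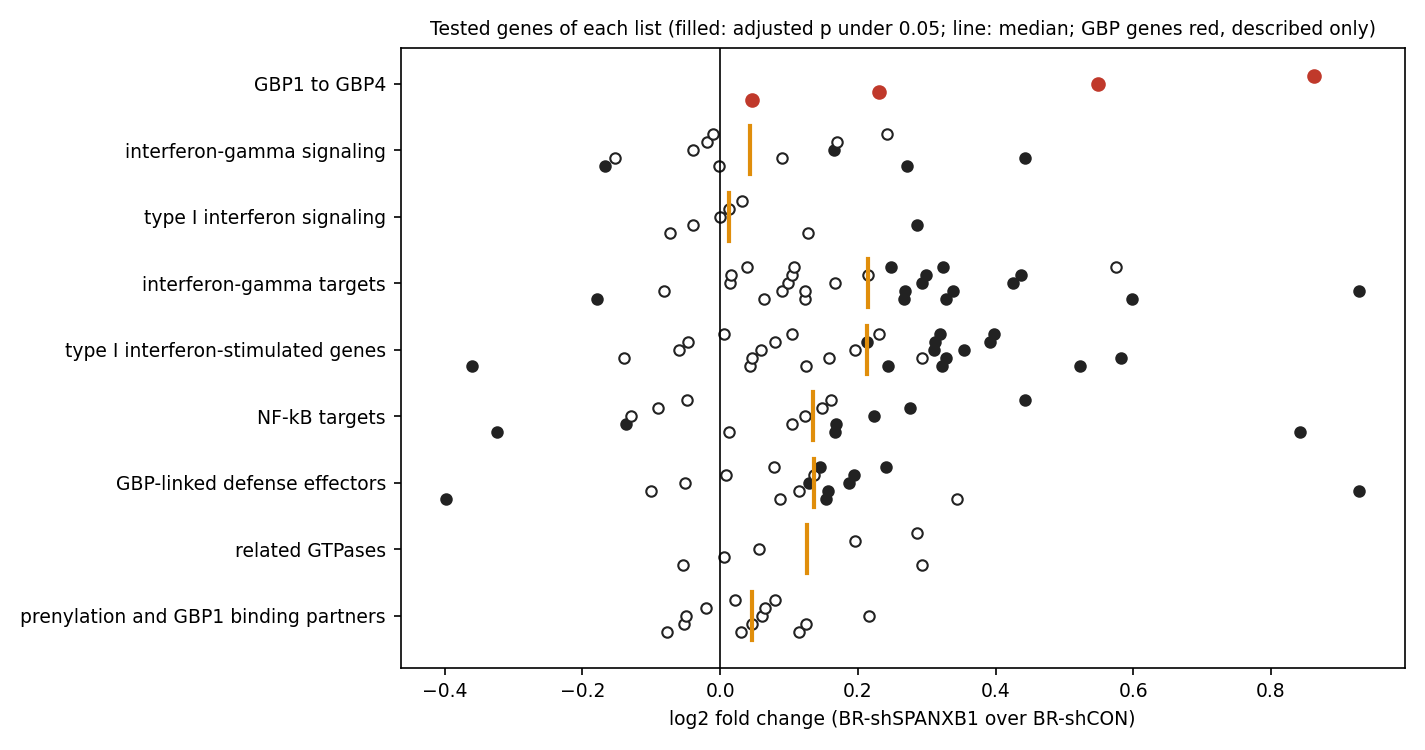
Log2 fold change (BR-shSPANXB1 over BR-shCON) of every tested gene of each list, with filled points for an adjusted p under 0.05, open points for the rest and an orange line at the median of each list other than the GBP genes. GBP1 to GBP4 stand in red in the top row, the medians of the lists below that row lie between 0.01 (type I interferon signaling) and 0.22 (interferon-gamma targets), and APOL3, at 0.93, is the farthest point to the right.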

How the data were processed

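Polyadenylated RNA of 3 BR-shSPANXB1 and 3 BR-shCON samples was read as pairs of 100 bases. The authors deposited estimated counts, not normalized, and FPKM values, scaled by them to transcript length and mapped fragments. Bowtie2 2.2.5, HISAT2 2.0.4 and build GRCh38.p12 appear in the submitters' processing notes without a role, and the sources used here do not give the counting program. The table's 6 TPM columns per sample and its 6 columns of group averages were not used, and 14.5% of counts were not whole.

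Counts were rounded and tested with edgeR 4.0.16 in R 4.3.3 (robust quasi-likelihood fit after TMM scaling, with Benjamini-Hochberg adjusted p) over genes whose FPKM averaged 1 or more, on code tested on simulated data. A standard error is the absolute log2 fold change over the root of the test's F. DESeq2 1.42.0, limma 3.58.1 on log2(FPKM + 0.1) and log2(FPKM + 1), median ratio scaling, filters of 0 and 5 FPKM, a replicate block and the loss of each sample were alternatives. Precision rests on 3 samples per group and, for GBP5, on counting error. Sequences were read with Python 3.11.15, pandas 2.3.3 and Biopython 1.88, and plots drawn with matplotlib 3.10.9. Neighbours were placed with GENCODE v29.

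The members and gene lists were chosen with earlier results of these data known. Named genes were the members, SPANXB1, other GBP genes, interferon-gamma signaling genes, up to 4 genes of the smallest adjusted p in each other list, neighbours within 300 kb, and the 3 genes most like each of the 2 members above the filter with the widest range. Genes outside this rule are marked, except ICAM1 and the markers GFAP, RBFOX3, PTPRC, ITGAM, CD14 and LYZ, for which no call is given. Some genes that the rule takes are not reported here. Same-numbered samples deviated together from their group means (correlations over genes of log2 CPM 0.113, 0.150 and 0.159; 0.0964, 0.135 and 0.104 of log2(FPKM + 0.1)), so the numbers were taken to pair samples on the scale tested, and the replicate block was run as the paired fit. The labels do not say what a number shares. Adjusted p-values and counts given without a named setting come from the fit that leaves this pairing unused.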

Additional observations from a re-analysis of the deposited data

How the results depend on the processing

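GBP2, GBP3 and GBP4 were the members called higher in the reported fit. The same 3 were called with median ratio scaling, DESeq2, limma at both pseudocounts and the replicate block. Beside them, 773, 502, 516, 522 and 1452 of 11439 tested genes were called higher in these settings, in that order. Without the filter GBP5 was called too, beside 922 of 16545 genes called higher. With a mean FPKM of at least 5 only GBP1 and GBP3 were tested. Of these 1 was called (GBP3), beside 659 of 9026 genes called higher. Without 1 sample, 2 to 3 members were called, beside 530 to 715 genes called higher of 11425 to 11443 tested. With limma on log2(FPKM + 1) the log2 fold changes were 0.43 for GBP2, 0.58 for GBP4 and 0.29 for GBP5, since this pseudocount shrinks low values. Leaving out 1 sample gave log2 fold changes of 0.01 to 0.08 for GBP1, 0.49 to 0.61 for GBP2, 0.17 to 0.28 for GBP3, 0.82 to 0.91 for GBP4 and 0.55 to 0.92 for GBP5. SPANXB1 was called lower in every setting run, at log2 fold changes of -1.16 to -1.06 without 1 sample. The 1579 genes called became 2935 with the replicate block, 1020 with DESeq2, 866 and 873 with limma on log2(FPKM + 0.1) and log2(FPKM + 1), and 1038 to 1464 without 1 sample. By the criteria of the study 71 genes were called, 26 with a mean FPKM of at least 5 and 30 with limma on log2(FPKM + 1). With the pairing by block 17 of 27 interferon-gamma targets, 16 of 27 type I interferon-stimulated genes and 8 of 16 NF-kB targets were called higher. So were 10 of 17 GBP-linked effectors, 4 of 12 interferon-gamma transducers, 2 of 7 type I interferon transducers and 2 of 6 related GTPases. Those called lower included 2 of 12 interferon-gamma transducers, 2 of 16 NF-kB targets and 2 of 17 GBP-linked effectors. In that fit 0 members changed their call. With that block 12.7% of all tested genes were called higher, and 1483 of 11439 were called lower. Calls of lower genes in the lists were few and moved between 0 and 2 across settings. With windows of 50 bases in place of 100, 6.62% of the members' transcript windows were shared with another gene. Levels of GBP5 and GBP6 are limited by depth.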
